A study of Mus musculus with 24 samples.

Results

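Gene expression in mouse gastrocnemius, the large calf muscle, was compared between 5 days and 1 day after denervation, the loss of its motor nerve. The comparison rests on 8 of the 24 libraries of the series, 4 whose titles give 5 days and 4 whose titles give 1 day; the other libraries form a control group and groups at 3, 7 and 14 days, also of 4 each. The 8 libraries were taken by their labels, as the pair of denervated groups that both carry a strong lymphoid signal. All 24 libraries are oligo(dT)-enriched RNA of gastrocnemius by their tissue label. The sources used here give no strain, sex or age, and do not say how the nerve was interrupted or what the control muscle was. They also do not state that libraries of one group are separate animals. P-values therefore measure the spread between these libraries alone, and that spread may be technical. By its extraction protocol the RNA would be from neurons of the dorsal root ganglion, which does not match the tissue label.

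A motor nerve keeps its muscle fibres in an adult state. Electrical activity holds down genes for the fetal acetylcholine receptor, for myogenic factors and for embryonic sarcomere proteins in most nuclei of the fibre, and these genes come up again when the nerve is lost. Fibres then lose mass, partly through ubiquitin ligases that send proteins to the proteasome, while macrophages, Schwann cells and fibroblasts around the cut nerve change as well. Day 1 and day 5 sample the early part of this course.

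Library totals ran from 17202277 to 20696900 counts at day 1 and from 16571405 to 17738823 at day 5. The spread within groups was small: the biological coefficient of variation common to all genes was 0.0389. Levels are given as CPM, counts scaled to a common library size (TMM), and as mean ± SD over 4 libraries where a group is summarised. Differences are log2 fold changes of day 5 minus day 1 with their standard errors, from edgeR's quasi-likelihood fit of all 24 libraries, and the words rose, fell and changed are kept for genes with a Benjamini-Hochberg adjusted p below 0.05. Of 14246 genes tested, 8234 changed (57.8%), 4128 of them higher at day 5 (29% of those tested) and 4106 lower (28.8%). Counts of list members below are to be read beside these shares. The 4 libraries of one day lay wholly beyond those of the other in 51.3% of the genes tested. Most changes were under 2-fold: 965 genes changed at least 2-fold and 197 at least 4-fold. The median gene moved by −0.0024 (log2). Scaled by library totals alone it moved by 0.061, and 4943 genes then stood higher and 3376 lower. Among the genes below whose value is given in each of the 8 libraries, Cd3g is the one in which the groups overlapped. Bulk RNA cannot tell fewer cells of a type from less RNA per cell, and this holds for every cell type marker below.

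The libraries were first checked against their labels. Acta1, skeletal muscle actin, stood at 35536 ± 466 CPM at day 1 and 32636 ± 429 CPM at day 5, which fits the tissue label. Of the 16 sensory neuron markers looked for, only 7 passed the expression filter. Scn10a, a sodium channel of sensory neurons, had 0 counts over the 4 day 1 libraries and 0 at day 5, and Calca, the precursor of the sensory neuropeptide CGRP, had 8 and 1. The summed level of that list was 35.7 to 37.6 CPM at day 1 and 41.7 to 46.1 CPM at day 5, most of it from Uchl1.

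Lymphoid signal was strong on both days. In summed level, its T cell part was slightly higher at day 5, and its B cell and plasma cell part clearly so. The median members of the 2 lists moved by similar amounts, log2 0.32 and 0.35. Summed over 20 markers of T and natural killer cells, the libraries held 167 to 176 CPM at day 1 and 192 to 203 CPM at day 5, against 14.1 to 18.6 CPM in control. Cd3g, a chain of the T cell receptor complex, stood at 6.92, 7.48, 6.12 and 6.41 CPM in the day 1 libraries and 7.02, 6.73, 6.89 and 5.14 CPM in the day 5 libraries, and the groups overlapped (log2 −0.06 ± 0.19, edgeR adjusted p = 0.794). Cd8a, the co-receptor of cytotoxic T cells, overlapped too (7.56 ± 1.39 and 7.51 ± 0.434 CPM, log2 −0.01 ± 0.17, edgeR adjusted p = 0.973). In the list, 8 of the 20 members tested rose and 2 fell, with 10 not passing (median log2 0.32). Il7r, the interleukin 7 receptor of resting lymphocytes, rose 2.86-fold and Ccr7, which guides lymphocytes to lymph nodes, rose 1.48-fold. Trdc, the constant gene of the gamma-delta T cell receptor, fell 2.49-fold from 15.9 ± 0.911 to 6.38 ± 0.556 CPM. Among B cell and plasma cell markers, 13 of the 18 members tested rose and 0 fell, with 5 not passing (median log2 0.35), and the summed level was 727 to 734 CPM at day 1 and 1027 to 1069 CPM at day 5.

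The B cell genes named by their size of change are those of antibody secretion. Jchain, which joins secreted antibodies, stood at 10.8, 11.8, 12.9 and 7.6 CPM in the day 1 libraries and 30.7, 29.1, 31.6 and 26.6 CPM in the day 5 libraries. The groups did not overlap, and the rise was 2.73-fold (log2 1.45 ± 0.12, edgeR adjusted p = 1.32e-14). Mzb1, a chaperone of antibody-secreting cells, rose 2.23-fold and Igkc, the kappa light chain constant gene, rose 2.24-fold. Ighg2b, the constant gene of an IgG heavy chain (ENSMUSG00000076613, chromosome 12, 113302965 to 113307933, minus strand), stood at 3, 2.22, 2.3 and 3.39 CPM at day 1 and 44.5, 47.4, 44.9 and 42.6 CPM at day 5, a rise of 16.4-fold (log2 4.03 ± 0.14). Ighg3 rose 20.5-fold. These coordinates and all others of genes are from GENCODE M21 on GRCm38, 1-based, which may not be the authors' build, and reads of immunoglobulin genes can be shared between near-identical copies. Among lymph node vessel and stroma markers, 7 of the 12 members tested rose and 0 fell, with 5 not passing (median log2 0.30). Glycam1, an adhesion ligand made by lymph node vessels and listed at 0 in control, rose 1.2-fold, from 42.8 ± 1.81 to 51.5 ± 2.5 CPM. The groups were paired for their strong lymphoid signal, so these levels are a description. The part of the higher T cell and B cell sums at day 5 in the results below was not tested.

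**Figure D1:**
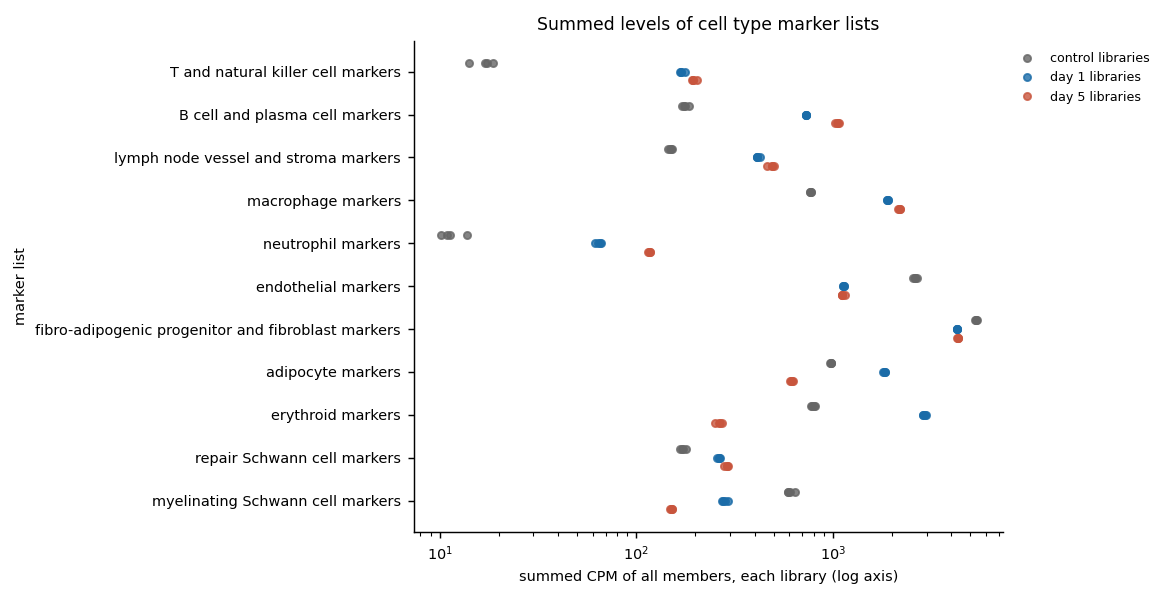
Summed CPM of the members of 11 marker lists in each control, day 1 and day 5 library, on a log axis. T cell, lymph node vessel, macrophage and endothelial sums of the 2 days lie near each other, while the erythroid, adipocyte and myelinating Schwann cell sums are lower in all 4 day 5 libraries and the neutrophil and B cell sums are higher.

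Of the muscle acetylcholine receptor genes, 3 were lower at day 5 than at day 1, although still above control. The adult receptor holds 2 alpha subunits with 1 beta, 1 delta and 1 epsilon subunit, and the fetal form has gamma in place of epsilon. Of the 5 subunit genes, 0 rose, 3 fell and 2 did not pass, where 28.8% of all genes fell. Their summed level was 648 to 661 CPM at day 1 and 496 to 519 CPM at day 5. At day 3 it was 98.5 to 102 CPM, near the 101 to 117 CPM of control, so the series held no steady decline from day 1. The reason for the low day 3 level was not tested. Chrng, the gamma subunit (ENSMUSG00000026253, chromosome 1, 87204657 to 87212694, plus strand), stood at 45.7, 41.1, 48 and 42.7 CPM in the day 1 libraries and 14.4, 14, 14.6 and 12 CPM in the day 5 libraries, against 0.374 ± 0.175 CPM in control. Every day 5 library was below every day 1 library, and the fall was 3.23-fold (log2 −1.69 ± 0.058, edgeR adjusted p = 1.9e-29). Chrnd, the delta subunit, stood at 84.3, 83, 84 and 85 CPM at day 1 and 57.7, 53.7, 58.4 and 57.8 CPM at day 5 and fell 1.48-fold. Chrna1, the alpha subunit that binds acetylcholine, stood at 407, 424, 412 and 413 CPM at day 1 and 321, 323, 317 and 310.1 CPM at day 5 and fell 1.3-fold. Their control levels were 4.83 ± 0.407 and 38 ± 2.85 CPM, and in neither gene did the groups overlap. Chrnb1, the beta subunit (log2 0.07 ± 0.035, edgeR adjusted p = 0.066), and Chrne, the adult epsilon subunit (log2 0.08 ± 0.17, edgeR adjusted p = 0.704), did not pass. Chrnb1 was called higher when the 8 libraries were fitted alone (edgeR adjusted p = 0.0466) and under scaling by library totals alone (log2 0.14). Per length, in the deposited TPM, the fetal subunit stood above the adult one on both days: Chrng was at 42.4 ± 7.92 TPM and Chrne at 2.4 ± 0.425 TPM at day 1. At day 5 the levels were 15.9 ± 1.32 TPM for Chrng and 2.75 ± 0.426 TPM for Chrne, and in control 0.34 ± 0.103 and 11.2 ± 0.485 TPM.

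The start regions of these subunit genes are shown because the subunits are textbook targets of myogenic factors, which bind the E-box, CANNTG, a motif that reads the same on both strands. The windows are the 250 bases before the RefSeq start on GRCm38.p6, 5′ to 3′ on the gene's strand, with every CANNTG in capitals: Chrng at chr1:87205561-87205810 (plus strand), Chrna1 at chr2:73580339-73580588 (minus strand) and Chrne at chr11:70619195-70619444 (minus strand).
Chrng: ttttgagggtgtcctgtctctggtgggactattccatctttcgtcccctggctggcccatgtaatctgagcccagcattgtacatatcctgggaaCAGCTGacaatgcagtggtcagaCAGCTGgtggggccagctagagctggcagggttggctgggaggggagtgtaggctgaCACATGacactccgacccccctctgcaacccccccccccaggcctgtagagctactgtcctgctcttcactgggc
Chrna1: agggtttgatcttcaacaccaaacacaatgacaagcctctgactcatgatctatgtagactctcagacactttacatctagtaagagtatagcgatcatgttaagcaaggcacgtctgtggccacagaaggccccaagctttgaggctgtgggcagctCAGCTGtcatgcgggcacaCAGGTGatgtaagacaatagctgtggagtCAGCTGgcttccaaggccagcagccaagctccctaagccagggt
Chrne: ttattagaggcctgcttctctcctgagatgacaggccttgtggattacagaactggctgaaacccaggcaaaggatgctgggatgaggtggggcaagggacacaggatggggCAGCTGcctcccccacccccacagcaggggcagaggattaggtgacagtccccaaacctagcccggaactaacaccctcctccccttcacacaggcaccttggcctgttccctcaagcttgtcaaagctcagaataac
Of the subunits that fell, Chrnd has no window in the table, and Chrng and Chrna1 have 3 and 3 matches, of which 2 and 2 are the form CAGCTG. Chrne, which did not pass, has 1, of that same form, and Chrnb1 has 3, none of them CAGCTG. The Chrng window lies inside the GENCODE gene whose coordinates are given above, as the RefSeq start used here is downstream of the GENCODE start. Of all 32817 promoter windows of this length, 66.2% hold a CANNTG and 13% a CAGCTG, so a match alone is common, and it is a description, not a shown binding site.

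Among other genes of the neuromuscular junction more fell than rose. In the list of synaptic scaffold and nerve contact genes, 3 of the 12 members tested rose and 6 fell, with 3 not passing (median log2 −0.21). Musk, the receptor kinase that gathers receptors under the nerve ending, stood at 79.3, 81.1, 85.6 and 80 CPM at day 1 and 50.4, 47.1, 44.3 and 47.2 CPM at day 5, without overlap, and fell 1.72-fold. Lrp4, its partner that binds nerve agrin, and Rapsn, which anchors the receptors, each fell, 1.38-fold and 1.37-fold. Ache, which breaks down acetylcholine, stood at 11.4, 11.1, 10.1 and 9.91 CPM at day 1 and 4.63, 4.86, 4.19 and 3.96 CPM at day 5, a fall of 2.41-fold (log2 −1.27 ± 0.12) against a control level of 42.2 ± 1.17 CPM. Colq, the collagen tail that fixes the same enzyme in the synaptic cleft, went the other way, from 6.54 ± 0.712 to 9.76 ± 1.27 CPM (1.49-fold higher). Ncam1, an adhesion molecule that denervated fibres put over their whole surface, rose 1.16-fold, and Utrn, the dystrophin relative of the junction, rose 1.13-fold. Dok7, the adaptor that activates the Musk protein, did not pass (log2 −0.07 ± 0.093, edgeR adjusted p = 0.526).

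Myogenic factors moved in different directions. In the list of bHLH factors and denervation regulators, 5 of the 16 members tested rose and 3 fell, with 8 not passing (median log2 0.01). That is 31.2% and 18.8%, where 29% of all genes rose and 28.8% fell. Under scaling by library totals alone 8 rose. Myod1, a factor of myoblasts and fast fibres, stood at 54, 52.3, 57.3 and 53.4 CPM at day 1 and 33.8, 31.2, 33.4 and 33.9 CPM at day 5 and fell 1.64-fold. Myog, which denervated fibres make in large amounts, fell 1.12-fold from 118 ± 7.03 to 106 ± 3.92 CPM, and stood at 19.8 ± 1.82 CPM in control. Myf6, the factor most abundant in adult fibres, stood at 535, 548, 536 and 545 CPM at day 1 and 1211, 1219.8, 1205 and 1178 CPM at day 5, with no overlap. Its rise was 2.22-fold (log2 1.15 ± 0.02, edgeR adjusted p = 1.71e-40). Runx1, a denervation-responsive transcription factor, rose 1.33-fold and Hdac4, the deacetylase that links lost nerve activity to gene control, rose 1.38-fold. Mef2c, a partner of the bHLH factors, fell 1.35-fold. Dach2, a repressor of Myog that goes down on denervation, was already at 0.0925 ± 0.0957 CPM at day 1 and did not pass (log2 −0.15 ± 1.07, edgeR adjusted p = 0.912), with 7 and 6 counts in the 2 groups against 1.42 ± 0.377 CPM in control.

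Most of the growth arrest genes tested rose. Of the Gadd45 genes and targets of the tumour suppressor p53, 14 of the 18 members tested rose and 0 fell, with 4 not passing (median log2 0.40). The summed level of this list was 1507 to 1551 CPM at day 1, 2627 to 2652 CPM at day 5 and 1787 to 1813 CPM in control. Compared with control, 9 of the 18 genes were lower in both group means and 6 higher in both. Gadd45a, a stress-induced nuclear protein that drives much of the atrophy programme (ENSMUSG00000036390, chromosome 6, 67035096 to 67037457, minus strand), stood at 288, 288, 296 and 285 CPM at day 1 and 710.4, 696, 719 and 702 CPM at day 5, against 64.9 ± 4.59 CPM in control. Its groups did not overlap, and it rose 2.44-fold (log2 1.29 ± 0.025, edgeR adjusted p = 3.35e-38). Cdkn1a, the cell cycle inhibitor p21, stood at 135, 149, 144 and 143 CPM at day 1 and 413, 406, 406 and 407 CPM at day 5 and rose 2.86-fold. Mdm2, the ligase that limits p53, rose 2.66-fold from 58.9 ± 2.15 to 157 ± 7.15 CPM. Trp53inp1 rose 2.06-fold, Sesn1 rose 2.01-fold and Btg2, an antiproliferative gene, rose 1.89-fold. The other Gadd45 genes did not pass: Gadd45b (log2 −0.03 ± 0.095, edgeR adjusted p = 0.795) and Gadd45g (log2 −0.05 ± 0.11, edgeR adjusted p = 0.734). Genes of dividing cells were lower at day 5 than at day 1, but mostly above control on both days. Their summed level was 360 to 376 CPM at day 1, 265 to 278 CPM at day 5 and 126 to 148 CPM in control. In the cell cycle and replication list, 1 of the 24 members tested rose and 20 fell, with 3 not passing (median log2 −0.56), with Ccnb2, a mitotic cyclin, down 2.29-fold, Mcm5, part of the replication helicase, down 2.12-fold, and Cdk1, the mitotic kinase, down 2.03-fold.

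The main atrophy ligases were higher at day 5. Among atrophy-linked ubiquitin ligases and FoxO factors, 11 of the 20 members tested rose and 6 fell, with 3 not passing (median log2 0.32). Trim63, which encodes the sarcomere ligase MuRF1 (ENSMUSG00000028834, chromosome 4, 134315120 to 134329629, plus strand), stood at 854, 822, 786 and 813 CPM in the day 1 libraries and 2290.2, 2369, 2382 and 2495 CPM in the day 5 libraries. Fbxo32, which encodes the F-box protein atrogin-1 (ENSMUSG00000022358, chromosome 15, 58175879 to 58214932, minus strand), stood at 583, 571, 582 and 568 CPM at day 1 and 1582, 1581, 1549.7 and 1560.1 CPM at day 5. Both sets of groups lay fully apart, and the rises were 2.91-fold (log2 1.54 ± 0.026) and 2.72-fold (log2 1.44 ± 0.018), each with an edgeR adjusted p of at most 1.01e-40. In control the levels were 3033 ± 115 CPM for Trim63 and 2213 ± 26.8 CPM for Fbxo32, above both days. Fbxo30, an F-box ligase restrained by BMP signalling, stood at 17.9, 17.1, 16.8 and 16 CPM at day 1 and 48.7, 43.9, 43.7 and 46.7 CPM at day 5 and rose 2.7-fold. Foxo1 and Foxo3, the transcription factors that switch on several of these ligases, rose 1.82-fold and 1.74-fold. Fbxl22, an F-box gene of the sarcomere, had the largest change of the 6 that fell: it stood at 18.2, 15.4, 16.7 and 17.1 CPM at day 1 and 2.56, 2.88, 3.03 and 3.39 CPM at day 5, a fall of 5.67-fold (log2 −2.50 ± 0.15). Trim54, which encodes MuRF3, also fell 1.62-fold.

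**Figure D2:**
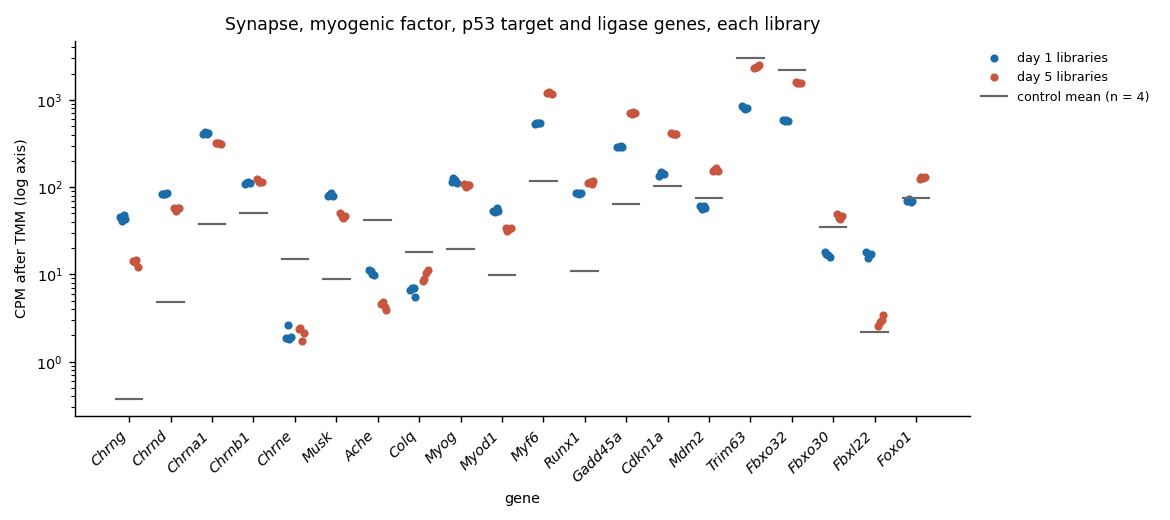
CPM of 20 genes in each of the 4 day 1 and 4 day 5 libraries on a log axis, with the control mean as a line. Chrna1, Chrnd, Chrng and Musk are lower at day 5 but above control, Gadd45a, Cdkn1a and Myf6 are higher at day 5 and above control, and Trim63 and Fbxo32 are higher at day 5 but below control.

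Genes known to respond to glucocorticoids, the stress steroid hormones, rose without exception among the 15 tested. In this list 15 of the 15 members tested rose and 0 fell (median log2 0.87), where 29% of all genes rose. Foxo1 and Pdk4 belong to this list and also to the ligase and the fatty acid lists. Ddit4, an inhibitor of growth signalling through mTOR, stood at 20, 14.7, 15.7 and 18.4 CPM at day 1 and 61.1, 62.6, 62.8 and 67.1 CPM at day 5 and rose 3.67-fold (log2 1.88 ± 0.086). Cebpd, a transcription factor, rose 3.22-fold, and Fkbp5, a chaperone of the glucocorticoid receptor, stood at 61.9, 65.8, 68.4 and 63.1 CPM at day 1 and 139.6, 140.2, 138 and 139 CPM at day 5 and rose 2.15-fold. Neither overlapped. Compared with control, 7 of the 15 genes were lower in both group means and 4 higher in both. Clock genes also differed between the days. In the clock list, 9 of the 18 members tested rose and 7 fell, with 2 not passing (median log2 0.04). Nfil3, a repressor of the clock output, rose 2.24-fold and Bmal1, a core activator, rose 1.89-fold, from 19.9 ± 0.872 to 37.7 ± 1.53 CPM. Dbp, which the core clock drives with a large daily swing, fell 2.97-fold, from 76 ± 2.78 to 25.6 ± 3.93 CPM, and Bhlhe41 fell 2.05-fold. No hour of sampling was given, and its part in these and other results was not tested.

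Of the proteasome subunits, 6 of the 31 members tested rose and 18 fell, with 7 not passing (median log2 −0.07), whereas 10 rose and 11 fell under scaling by library totals alone. The changes lay in a narrow range: Psmb3 fell 1.22-fold and Psmc6 rose 1.23-fold. In the autophagy and lysosome list, 14 of the 20 members tested rose and 1 fell, with 5 not passing (median log2 0.15). Bnip3, which marks mitochondria for removal, stood at 259.6, 265, 266 and 261 CPM at day 1 and 462, 466, 471 and 462 CPM at day 5 and rose 1.77-fold, and Gabarapl1, a protein of the autophagosome membrane, rose 1.75-fold. Ulk1, the kinase that starts autophagy, rose 1.45-fold. Tfeb, the transcription factor of lysosome genes, was the member that fell (1.8-fold, from 57.3 ± 1.63 to 31.8 ± 1.1 CPM).

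Between the 2 days 12 of 13 slow fibre genes rose and 13 of 14 fast fibre genes fell. Of the fast fibre contractile list, 1 of the 14 members tested rose and 13 fell (median log2 −0.31), and of the slow fibre list, 12 of the 13 members tested rose and 1 fell (median log2 0.97). All 14 fast members stood below control on both days, as did 10 of the 13 slow ones. Myh7, the slow myosin heavy chain, stood at 57.5, 57.6, 51.3 and 58.1 CPM in the day 1 libraries and 304, 289, 310.0 and 316 CPM in the day 5 libraries, against 694 ± 28.9 CPM in control. The groups lay far apart, and Myh7 rose 5.43-fold (log2 2.44 ± 0.036, edgeR adjusted p = 1.87e-43). Tnnc1, the slow troponin C, stood at 18.9, 17.3, 19 and 18.5 CPM at day 1 and 54.8, 60.2, 56.5 and 63.5 CPM at day 5 and rose 3.19-fold. Tnni1, the slow troponin I, rose 3.19-fold and Myoz2, a Z-disc protein of slow fibres, rose 2.44-fold. Myl3, a slow and cardiac myosin light chain, was the slow gene that fell, 2.5-fold, from 83.6 ± 3.93 to 33.5 ± 1.38 CPM. Casq1, the calcium buffer of fast fibres, fell 1.68-fold, Pvalb, their soluble calcium buffer, fell 1.5-fold, and Mybpc2, the fast myosin-binding protein C, fell 1.48-fold.

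Myosin heavy chains set the speed of a fibre. Of 10 chains tested, 5 rose, 2 fell and 3 did not pass. In the deposited TPM, which can be compared between genes, Myh4, the chain of the fastest fibres (type 2B), stood at 8319 ± 157 TPM in control, 5125 ± 132 TPM at day 1 and 3638 ± 87 TPM at day 5. It had the highest TPM of the chains tested in all 3 groups, and in CPM it fell 1.54-fold (log2 −0.62 ± 0.015). Myh2, the chain of type 2A fibres, stood at 233 ± 5.86 TPM in control, 100.1 ± 3.07 TPM at day 1 and 432 ± 9.5 TPM at day 5, and in CPM at 344, 325, 324 and 325 at day 1 and 1281, 1291, 1301 and 1331 at day 5. Its rise was 3.95-fold (log2 1.98 ± 0.02) with a day 5 mean of 1301 CPM against 1188 CPM in control. Myh1, the type 2X chain, rose 1.08-fold. The developmental chains also rose. Myh8, the perinatal chain (ENSMUSG00000055775, chromosome 11, 67277124 to 67308634, plus strand), stood at 6.88, 6.59, 5.82 and 6.47 CPM at day 1 and 43, 42.1, 41.6 and 46.2 CPM at day 5, a rise of 6.7-fold (log2 2.74 ± 0.079), and Myh3, the embryonic chain, stood at 87.5 ± 5.1 and 112 ± 3.46 CPM, a rise of 1.27-fold. Myh13, the extraocular chain, fell 2.29-fold with 55 counts at day 1 and 23 at day 5. That call was lost without day 1 replicate 2 or 4 or day 5 replicate 1 or 2 (log2 −1.07 to −0.88, edgeR adjusted p of Myh13 0.0579 to 0.119).

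Developmental and cardiac isoforms did not move together. In this list, which holds Myh3 and Myh8 again, 5 of the 9 members tested rose and 2 fell, with 2 not passing (median log2 0.91). Tnnt2, cardiac troponin T, stood at 10.2, 6.65, 7.35 and 8.03 CPM at day 1 and 26.1, 24.8, 24.4 and 27.4 CPM at day 5 and rose 3.17-fold. Actc1, cardiac actin, stood at 339, 331, 337 and 328 CPM at day 1 and 96.1, 94, 104 and 103 CPM at day 5, a fall of 3.37-fold (log2 −1.75 ± 0.029) against a control level of 4138 ± 145 CPM. Mybph, a myosin-binding protein, fell 2.74-fold. Ankrd1, a stretch-responsive gene that was at 3.77 ± 1.94 CPM in control, stood at 461 ± 10.6 and 466 ± 6.66 CPM on the 2 days and did not pass (log2 0.02 ± 0.032, edgeR adjusted p = 0.681). Its relative Ankrd2 fell 1.51-fold. Among Z-disc and stretch-responsive genes, 5 of the 12 members tested rose and 6 fell, with 1 not passing (median log2 −0.12), with Csrp3, the muscle LIM protein, up 1.96-fold and Xirp1, an actin-binding repair protein, up 1.92-fold. Ldb3, which holds the Z-disc together, stood at 1359.6, 1379.5, 1377 and 1348 CPM at day 1 and 633, 641, 641 and 615 CPM at day 5 and fell 2.16-fold, and Myoz3 fell 2.01-fold.

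**Figure D3:**
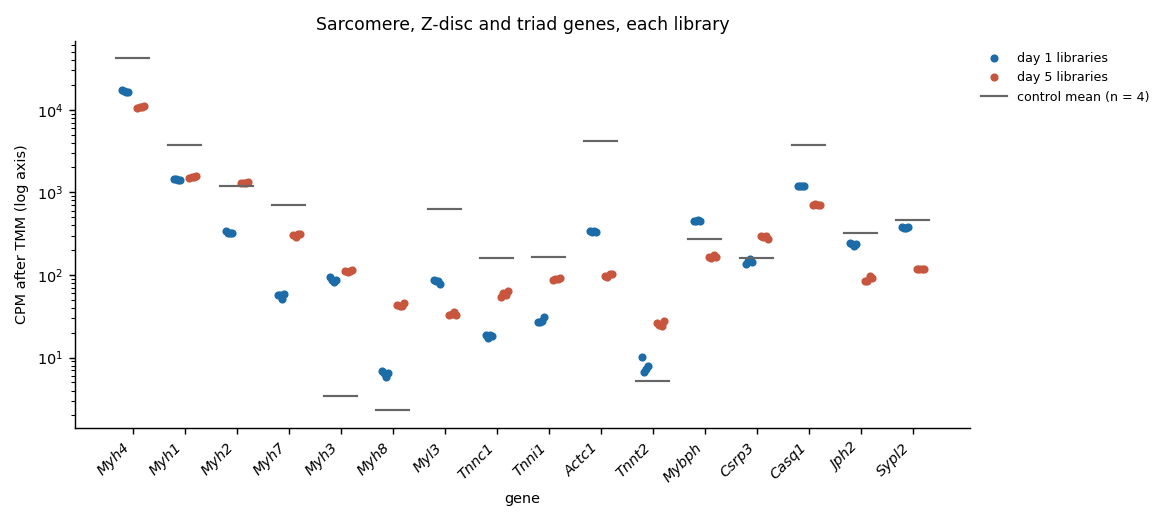
CPM of 16 sarcomere, Z-disc and triad genes in each day 1 and day 5 library on a log axis, with the control mean as a line. Myh2, Myh7, Myh8, Tnnc1, Tnni1 and Tnnt2 are higher in all day 5 libraries, and Myh4, Myl3, Actc1, Mybph, Casq1, Jph2 and Sypl2 lower.

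Most genes that couple excitation to contraction were lower at day 5. In the triad and calcium handling list, 4 of the 16 members tested rose and 10 fell, with 2 not passing (median log2 −0.28). Jph2, which ties the surface tubules to the calcium store, stood at 247, 239.8, 227 and 236 CPM at day 1 and 84.4, 85.1, 96.5 and 90.8 CPM at day 5 and fell 2.66-fold (log2 −1.41 ± 0.04). Sypl2, a triad protein also called mitsugumin 29, fell 3.19-fold, and Stac3, needed for the voltage sensor to open the release channel, fell 1.64-fold. The groups did not overlap in any of these. Ion channels of the membrane were mixed: 6 of the 18 members tested rose and 7 fell, with 5 not passing (median log2 −0.11). Kcnj2, the inward rectifier that sets the resting potential, stood at 14.4, 15.6, 13.8 and 14.4 CPM at day 1 and 37.2, 39.5, 36.1 and 39.2 CPM at day 5 and rose 2.61-fold. Kcnn3, a calcium-activated potassium channel of denervated fibres, fell 1.92-fold from 17.3 ± 2.4 to 8.99 ± 1.47 CPM and stayed above its control level of 2.19 ± 0.443 CPM. Clcn1, the chloride channel that steadies the membrane, fell 1.8-fold. Subunits of the sodium pump went opposite ways, with Atp1b1 up 1.55-fold and Atp1b2 down 2.79-fold.

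Genes of glycolysis and of mitochondrial respiration were mostly lower at day 5. In glycolysis and glycogen breakdown, 2 of the 20 members tested rose and 18 fell (median log2 −0.51). Gpd1, which links glycolysis to lipid synthesis, stood at 282, 274, 265 and 272 CPM at day 1 and 83.1, 79.2, 80.8 and 82.3 CPM at day 5 and fell 3.36-fold. Phka1 and Phkg1, subunits of the kinase that starts glycogen breakdown, fell 2.23-fold and 2.2-fold. Of the nuclear-encoded oxidative phosphorylation subunits, 3 of the 73 members tested rose and 55 fell, with 15 not passing (median log2 −0.19). Under scaling by library totals alone 7 rose. Muscle isoforms of cytochrome c oxidase were among the members that fell, Cox7a1 by 2.17-fold, from 44.4 ± 1.2 to 20.5 ± 1.46 CPM, and Cox8b by 1.64-fold. All 73 stood below control on both days. Of the subunits encoded in the mitochondrial genome, 0 of the 13 members tested rose and 12 fell, with 1 not passing (median log2 −0.16), with mt-Nd3 down 1.45-fold and mt-Co3 down 1.3-fold. In the tricarboxylic acid cycle list, 1 of the 17 members tested rose and 11 fell, with 5 not passing (median log2 −0.12). With library totals alone 3 rose.

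Genes of fat use moved both ways. In the fatty acid uptake and oxidation list, 11 of the 22 members tested rose and 10 fell, with 1 not passing (median log2 0.05). Pdk4, the kinase that turns fibres from glucose to fat by blocking pyruvate dehydrogenase (ENSMUSG00000019577, chromosome 6, 5483351 to 5496309, minus strand), stood at 447, 445, 437 and 439 CPM at day 1 and 1679, 1689, 1656 and 1674 CPM at day 5, with 4689.8 ± 64.5 CPM in control. It rose 3.79-fold (log2 1.92 ± 0.019, edgeR adjusted p = 5.65e-50). Fabp3, the fatty acid carrier of muscle, rose 2.36-fold and Cpt1b, which admits fatty acids to mitochondria, rose 1.55-fold, whereas Slc27a1, a fatty acid transporter, fell 1.39-fold. Among regulators of mitochondria, 6 of the 17 members tested rose and 5 fell, with 6 not passing (median log2 0.10). Ppargc1a, the coactivator of mitochondrial biogenesis, stood at 7.89, 7.04, 8.01 and 6.57 CPM at day 1 and 22.7, 21.5, 20 and 19.5 CPM at day 5, above its control level of 11.1 ± 1.04 CPM at day 5 only, and rose 2.82-fold. Its partners Esrra and Esrrg, nuclear receptors, fell 1.38-fold and 1.59-fold. Slc2a4, the insulin-responsive glucose transporter, fell 1.54-fold, while Irs2, an insulin receptor substrate, rose 2.3-fold and Igf1r, the receptor of insulin-like growth factor 1, rose 1.74-fold. In the insulin signalling list as a whole, 8 of the 14 members tested rose and 5 fell, with 1 not passing (median log2 0.24). Igfbp5, a binding protein of these factors, fell 2.23-fold from 1244 ± 12.7 to 558 ± 8.09 CPM.

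**Figure D4:**
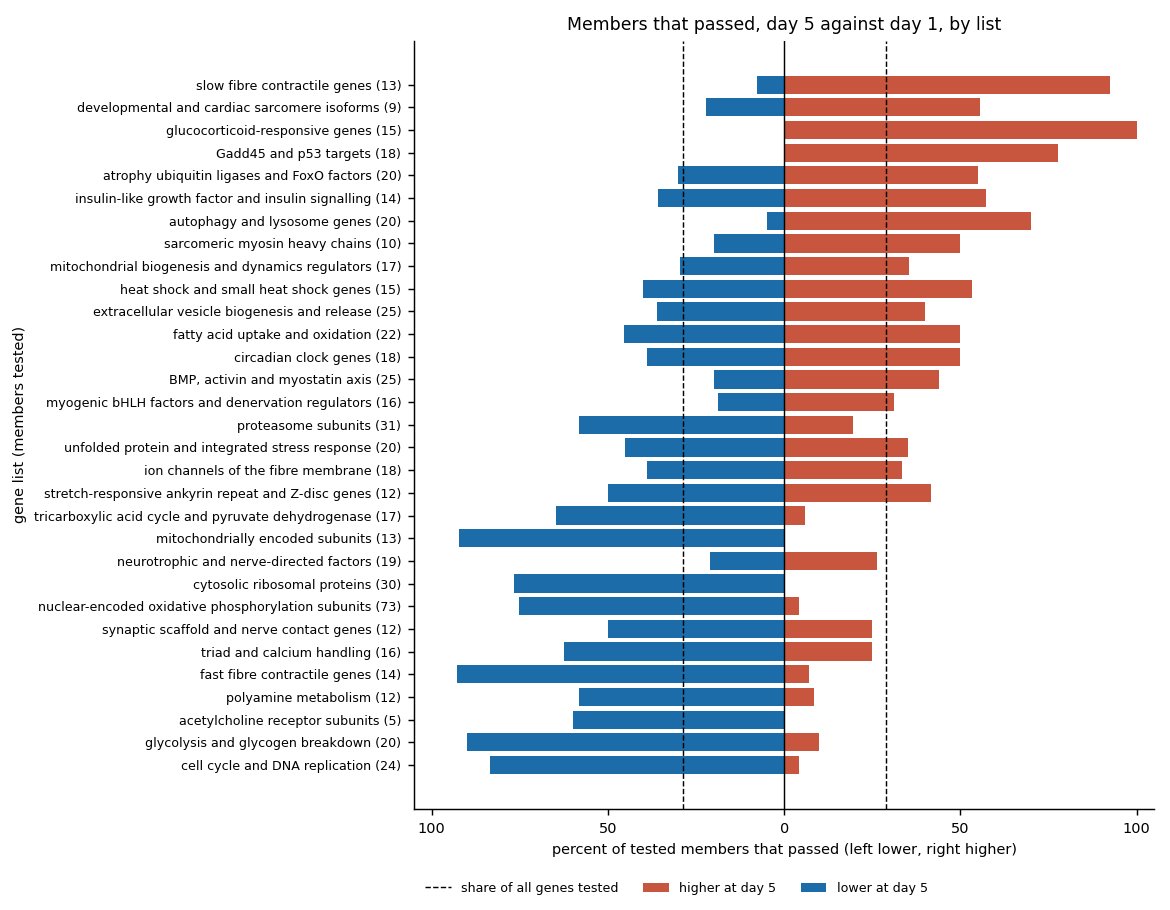
Percent of the tested members of each fibre list that were higher (right) or lower (left) at day 5, with the members tested in brackets and dashed lines at the shares of all genes tested, 29% higher and 28.8% lower. Slow fibre and glucocorticoid-responsive lists reach furthest to the right, and fast fibre, glycolysis, mitochondrially encoded and cell cycle lists furthest to the left.

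Ribosomal protein genes fell in most cases, and stress genes were mixed. In the list, 0 of the 30 members tested rose and 23 fell, with 7 not passing (median log2 −0.17), led by Rps2 (1.31-fold). With library totals alone 3 rose. In the heat shock list, 8 of the 15 members tested rose and 6 fell, with 1 not passing (median log2 0.09). Cryab, a small heat shock protein that protects desmin and the Z-disc, stood at 3146, 3111, 3203 and 3162 CPM at day 1 and 519.5, 512, 512 and 506 CPM at day 5, against 365 ± 8.5 CPM in control. It fell 6.16-fold (log2 −2.62 ± 0.018), and Hspb2, the small heat shock gene next to it on chromosome 9, fell 2.92-fold. Hspa1a, which shares reads with its near-identical copy Hspa1b, rose 1.83-fold at low levels, from 6.49 ± 1.33 to 11.9 ± 0.79 CPM. Among genes of the unfolded protein and integrated stress responses, 7 of the 20 members tested rose and 9 fell, with 4 not passing (median log2 −0.08). Those that fell include enzymes of amino acid and one-carbon metabolism: Phgdh, which starts serine synthesis, fell 2.5-fold and Mthfd2, a mitochondrial folate enzyme, fell 2.22-fold. Fgf21, a stress hormone of muscle, fell 3.38-fold at levels under 1 CPM on both days. In polyamine metabolism, 1 of the 12 members tested rose and 7 fell, with 4 not passing (median log2 −0.36), with Amd1 and Odc1, the enzymes that control polyamine synthesis, down 1.65-fold and 1.62-fold.

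Myostatin fell, while the genes of the BMP and activin axis as a list were mixed: 11 of the 25 members tested rose and 5 fell, with 9 not passing (median log2 0.03). Mstn, myostatin, the inhibitor of muscle growth (ENSMUSG00000026100, chromosome 1, 53061640 to 53068079, plus strand), stood at 65.6, 67.2, 64.8 and 64.6 CPM at day 1 and 13.5, 14.1, 12.6 and 11.2 CPM at day 5, against 44.3 ± 2.52 CPM in control. No library of one day reached those of the other, and Mstn fell 5.1-fold (log2 −2.35 ± 0.063, edgeR adjusted p = 1.58e-33). Acvr2b, its receptor, fell 1.83-fold and Gdf11, its closest relative, fell 1.81-fold. On the BMP side, Gdf5, a ligand that limits denervation atrophy, stood at 17.9, 21.3, 22.1 and 17.9 CPM at day 1 and 27.4, 30.6, 29.2 and 30.6 CPM at day 5 and rose 1.49-fold, and Bmpr2, a BMP receptor, rose 1.42-fold. Id2, an inhibitor of bHLH factors, rose 2.66-fold (log2 1.41 ± 0.065), while Id1 (log2 −0.00 ± 0.072, edgeR adjusted p = 0.998), which BMP signals also induce, did not pass. Grem1, a secreted BMP antagonist, stood at 2.17, 1.77, 2.04 and 1.51 CPM at day 1 and 4.08, 4.33, 3.75 and 3.55 CPM at day 5 and rose 2.09-fold.

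The series title names extracellular vesicles of denervated muscle and signals from muscle to nerve, and genes of both kinds were mixed. Among neurotrophic and nerve-directed factors, 5 of the 19 members tested rose and 4 fell, with 10 not passing (median log2 −0.16). That is 26.3% and 21.1%, near the 29% and 28.8% of all genes. Gdnf, a survival factor of motor neurons, stood at 6.42, 5.87, 5.87 and 4.85 CPM at day 1 and 8.44, 8.39, 7.11 and 11 CPM at day 5 and rose 1.52-fold. Hgf, hepatocyte growth factor, rose 2.11-fold, and Sema3a, a repellent of growing axons, rose 1.76-fold. Cntf, a factor kept in Schwann cells, fell 1.93-fold. Bdnf did not pass (log2 0.51 ± 0.43, edgeR adjusted p = 0.316). In the extracellular vesicle list, 10 of the 25 members tested rose and 9 fell, with 6 not passing (median log2 0.06). Cd63, a tetraspanin of exosomes, stood at 389.7, 391, 399.9 and 379.8 CPM at day 1 and 229, 229, 224 and 224 CPM at day 5 and fell 1.72-fold. Cd81 and Cd9, its relatives, fell 1.37-fold and 1.15-fold. Rab27a, a small GTPase that docks vesicles for release, stood at 7.25, 8.98, 9.69 and 9.05 CPM at day 1 and 14.4, 14.6, 14.8 and 13.8 CPM at day 5 and rose 1.65-fold. Hgs, which sorts cargo into vesicles, rose 1.12-fold.

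Interferon-stimulated genes, which cells switch on in answer to antiviral cytokines, fell in every case tested: 0 of the 18 members tested rose and 18 fell (median log2 −1.24), where 28.8% of all genes fell. Their summed level was 749 to 769 CPM at day 1, 317 to 325 CPM at day 5 and 325 to 333 CPM in control. Ifit3, which blocks viral RNA, stood at 78.7, 76.4, 75.2 and 77.3 CPM at day 1 and 17.3, 17.1, 17.6 and 17.5 CPM at day 5 and fell 4.42-fold (log2 −2.15 ± 0.05, edgeR adjusted p = 1.13e-35). Isg15, a ubiquitin-like protein, stood at 15.7, 16.2, 15.6 and 15.8 CPM at day 1 and 4.08, 2.51, 3.42 and 4.83 CPM at day 5 and fell 4.25-fold. Oasl2 fell 3.86-fold and Oas1a, a sensor of double-stranded RNA, fell 3.51-fold. None of these groups overlapped. Psmb8 and Tap1, which serve antigen presentation and also respond to interferon gamma, fell too, 1.6-fold and 1.42-fold.

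The start regions of 3 of these genes are shown because the members fell together and interferon-regulated factors are known to bind repeats of GAAA. The motif searched is GAAA, any 2 bases and GAAA again, on both strands. It was chosen after the values were seen and is in capitals in the 250 bases before the RefSeq start on GRCm38.p6: Isg15 at chr4:156200819-156201068 (minus strand), Ifit3 at chr19:34583279-34583528 (plus strand) and Ifit1 at chr19:34640639-34640888 (plus strand).
Isg15: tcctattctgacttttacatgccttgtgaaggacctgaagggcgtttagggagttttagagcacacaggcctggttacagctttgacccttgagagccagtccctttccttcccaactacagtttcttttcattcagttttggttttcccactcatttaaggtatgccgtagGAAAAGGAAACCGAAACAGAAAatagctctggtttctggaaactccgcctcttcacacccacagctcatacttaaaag
Ifit3: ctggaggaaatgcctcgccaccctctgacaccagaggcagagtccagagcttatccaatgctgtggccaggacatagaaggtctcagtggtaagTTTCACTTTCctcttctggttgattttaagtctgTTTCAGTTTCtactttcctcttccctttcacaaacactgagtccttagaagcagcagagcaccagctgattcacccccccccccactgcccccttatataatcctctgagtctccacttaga
Ifit1: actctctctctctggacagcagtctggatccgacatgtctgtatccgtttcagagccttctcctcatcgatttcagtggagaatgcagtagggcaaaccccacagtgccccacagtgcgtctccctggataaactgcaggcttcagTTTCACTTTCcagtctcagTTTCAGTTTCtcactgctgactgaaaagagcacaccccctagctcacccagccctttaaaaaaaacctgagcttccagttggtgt
Isg15 has 3 matches, which overlap one another, and Ifit3 and Ifit1 have 2 and 2. Of the 19 genes listed, 15 have a promoter window and 8 of those hold the motif, against 2.97% of all 32817 windows. A gene was counted if any of its windows matched, whereas the 2.97% is a share of windows, so the units differ. The genes were also listed because interferon is known to induce them, and the motif because interferon-regulated factors bind it. Their share is therefore no test of a link between the motif and the fall. A match is a description, not a shown binding site. The windows of Oasl2 and Irf7, which fell 3.86-fold and 3.43-fold, hold no match.

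**Figure D5:**
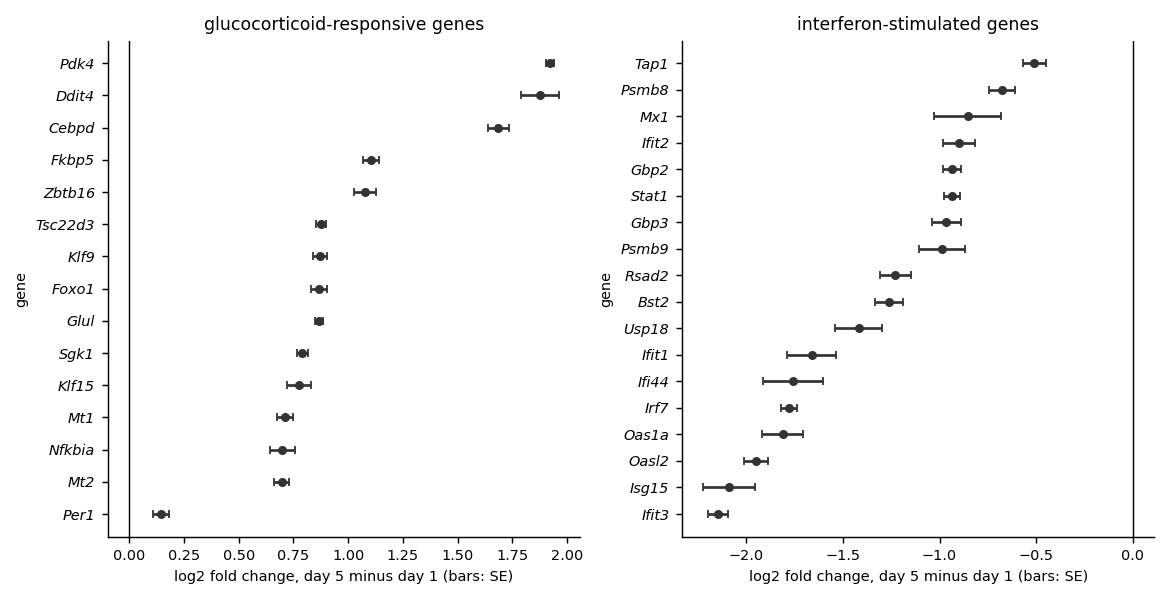
Log2 fold change of day 5 minus day 1, with its standard error, for the tested members of the glucocorticoid-responsive list (left) and the interferon-stimulated list (right). All 15 points on the left lie above 0, from Per1 to Pdk4, and all 18 on the right lie below 0, from Ifit3 to Tap1.

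Macrophage markers moved in both directions. Of the macrophage markers, 9 of the 19 members tested rose and 5 fell, with 5 not passing (median log2 0.05), with a summed level of 1887 to 1915 CPM at day 1 and 2138 to 2182 CPM at day 5. Mertk, a receptor for engulfing dead cells, rose 1.58-fold and Cd163, of resident macrophages, rose 1.33-fold. Fcgr1, an antibody receptor of recruited cells, fell 1.94-fold and Cx3cr1 fell 1.63-fold. Most neutrophil markers rose: 11 of the 13 members tested rose and 0 fell, with 2 not passing (median log2 0.93). S100a8, a main protein of neutrophils, stood at 15, 13, 13.8 and 12.8 CPM at day 1 and 31.5, 31.1, 31.2 and 31.3 CPM at day 5 and rose 2.28-fold, and the granule genes Ltf and Camp rose 2.61-fold and 2.41-fold. Among MHC class II and dendritic cell markers, 8 of the 16 members tested rose and 0 fell, with 8 not passing (median log2 0.25). In the cytokine and chemokine list, 4 of the 18 members tested rose and 4 fell, with 10 not passing (median log2 0.07). That median was −0.02 without day 1 replicate 1 and −0.09 without day 5 replicate 3. Ccl8, a monocyte attractant, rose 1.7-fold, and Cxcl9, which interferon gamma induces, fell 1.55-fold. Tested members of the list ranged from log2 −1.95 to 1.09, beyond both of these genes.

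Blood and fat markers stood apart. All 5 erythroid genes fell, where 28.8% of all genes did: the summed level was 2856 to 2968 CPM at day 1, 252 to 273 CPM at day 5 and 776 to 807 CPM in control. Alas2, the heme enzyme of red cell precursors, stood at 61.2, 62.5, 59.7 and 58.2 CPM at day 1 and 4.3, 4.81, 4.36 and 5.19 CPM at day 5 and fell 12.9-fold. Hbb-bt, a beta globin, fell 15.9-fold, with reads that copies of the globin genes can share. Most adipocyte markers fell too: 0 of the 9 members tested rose and 8 fell, with 1 not passing (median log2 −1.58). Their summed level was 1806 to 1838 CPM at day 1, 603 to 626 CPM at day 5 and 971 to 983 CPM in control. Plin1, which coats fat droplets, fell 6.12-fold, Adipoq, the hormone adiponectin, fell 4.21-fold and Retn, resistin, fell 5.77-fold. Adipocytes also express Gpd1 and several fatty acid genes of the metabolic lists, and the part of the lower adipocyte signal in those lists was not tested.

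Endothelial markers gave 5 members that rose and 7 that fell of 12, the changes reaching from Vwf, which fell 1.23-fold, to Flt1, which rose 1.2-fold. With library totals alone 2 fell, and without day 5 replicate 2 it was 4. In pericyte and smooth muscle markers, 1 of the 10 members tested rose and 7 fell, with 2 not passing (median log2 −0.21), with Cspg4 down 1.61-fold. In the fibroblast and progenitor list, 3 of the 13 members tested rose and 6 fell, with 4 not passing (median log2 −0.12), and the summed level was 4268 to 4273 CPM at day 1 and 4267 to 4312 CPM at day 5. Of the matrix genes more fell than rose beside that sum: 7 of the 23 members tested rose and 16 fell (median log2 −0.30). Col1a1, the main chain of type I collagen, stood at 1314, 1328, 1281 and 1333 CPM at day 1 and 644, 645, 670.1 and 683 CPM at day 5 and fell 1.99-fold, and Sparc, a collagen-binding protein, fell 1.85-fold. Thbs1, a matrix protein that cells add to wounds, rose 1.94-fold. Of the tendon markers 8 of 10 fell, Chad, chondroadherin, by 3.04-fold and Tnmd, tenomodulin, by 2.06-fold.

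Most myelin genes of Schwann cells were lower at day 5. Of the myelinating Schwann cell markers, 2 of the 12 members tested rose and 7 fell, with 3 not passing (median log2 −0.80). Prx, periaxin of the myelin sheath, stood at 15.1, 13.2, 12.9 and 16.8 CPM at day 1 and 3.81, 3.31, 4.36 and 3.96 CPM at day 5, against 48.2 ± 1.57 CPM in control. It fell 3.75-fold (log2 −1.91 ± 0.12, edgeR adjusted p = 2.3e-19), and Ncmap fell 5.3-fold. Sox10, which all Schwann cells keep, did not pass (log2 0.11 ± 0.099, edgeR adjusted p = 0.342), and Egr2, the switch of the myelin programme, rose 2.46-fold. Repair Schwann cell markers were near even: 3 of the 11 members tested rose and 2 fell, with 6 not passing (median log2 0.11). That is 27.3% and 18.2%, where 29% of all genes rose and 28.8% fell. Shh, which Schwann cells make after injury, fell 2.25-fold, from 4.24 ± 0.92 to 1.88 ± 0.306 CPM, and Ngfr rose 1.18-fold. Among markers of satellite cells, the stem cells of muscle, 5 of the 12 members tested rose and 4 fell, with 3 not passing (median log2 0.13). Myf5, the earliest of the myogenic factors in the embryo, rose 1.82-fold and Megf10 fell 1.69-fold. Vcam1, an adhesion molecule that endothelial and other cells also make, rose 2.53-fold.

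Among genes of at least 1 on the log2 CPM scale over the 8 libraries, the largest changes were in immunoglobulin, red cell and a few other genes. Besides the immunoglobulin genes, the largest rises were of Bpifb1, a secreted protein of airway and gland lining that was listed at 0 in control and stood at 0.692, 0.388, 0.714 and 0.808 CPM at day 1 and 23.4, 19.3, 21.3 and 19.6 CPM at day 5 (31.6-fold), Mrgprg, an orphan receptor (17.6-fold), Serpina12, the adipokine vaspin (16.5-fold), Micall2, an actin regulator of cell junctions (10.8-fold), and Nr4a3, an orphan nuclear receptor induced by activity and stress (10.3-fold). Micall2 stood at 6.14, 6.37, 5.71 and 6.52 CPM at day 1 and 65.9, 63.5, 68.7 and 68.1 CPM at day 5, against 4.44 ± 0.606 CPM in control, and Nr4a3 at 1.2, 1.83, 1.53 and 1.83 and 16.4, 15.1, 17 and 16.9 CPM. Among epithelial and secretory markers, which include genes of the same kind of lining as Bpifb1, 1 of the 9 members tested rose and 5 fell, with 3 not passing (median log2 −0.59). Their summed level went the other way, from 302 to 322 CPM at day 1 to 392 to 403 CPM at day 5, against 3.94 to 10.3 CPM in control. Most of that sum at day 5 was Krt18, a keratin of simple epithelia, which rose 1.74-fold from 165 ± 6.87 to 287 ± 4.35 CPM. In Micall2 and Nr4a3, all day 5 libraries were about an order of magnitude above all day 1 libraries. Among the falls, Chrna9, a nicotinic receptor subunit that is not part of the muscle receptor (ENSMUSG00000029205, chromosome 5, 65934921 to 65977326, plus strand), stood at 34, 33.4, 34.6 and 31.2 CPM at day 1 and 0.327, 0.534, 1.05 and 0.411 CPM at day 5, against 1.55 ± 0.285 CPM in control, and fell 57.1-fold (log2 −5.84 ± 0.24). Tmem45b fell 20.7-fold, and Gjb1, the gap junction protein connexin 32 of myelinating Schwann cells, fell 22.1-fold. Aldh1a7, an aldehyde dehydrogenase, fell 13.3-fold.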

How the data were processed

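RNA-seq of 24 gastrocnemius libraries was analysed from a single gene table. Per the file headers, the authors deposited an expected count and a TPM for each of 21965 genes in each library; 7.006% of the expected counts are not whole, and they were rounded before testing. The TPM, scaled by the authors for gene length and library, were used for levels across genes only. Per the labels' protocols, RNA was oligo(dT)-enriched and sequenced on an Illumina NovaSeq; the aligner, quantifier and genome build were not given in the sources used here. Library totals were 16082846 to 20696900 counts. Gene coordinates are from GENCODE M21 (21806 identifiers matched).

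Genes passing edgeR's filterByExpr by group were scaled by TMM and fitted with edgeR 4.0.16 (R 4.3.3) in one quasi-likelihood model of the 6 groups, so that all libraries share the estimate of spread. Day 5 minus day 1 was tested with Benjamini-Hochberg adjustment over 14246 genes, at a threshold of 0.05. Groups came from the sample titles. The test was checked on simulated counts. Alternatives were DESeq2 1.42.0, other scalings and filters, the 8 libraries alone, a replicate block and leaving out each library.

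The comparison and the 51 gene lists (857 genes looked for, 853 found) were chosen with earlier results of these data known. Some genes stand in more than 1 list, so related lists are not separate evidence. Csrp3 is in the slow fibre and Z-disc lists. Myod1 and Myf5 are in the myogenic factor and satellite cell lists, and Gdnf is in the neurotrophic and repair Schwann cell lists. Genes were named by rule: the 12 genes that rose most and the 12 that fell most, given a mean of 1 or more in log2 CPM and no overlap between the groups, up to 4 changed members per list by size, and the members of some lists, changed or not. Not all of these are printed. Acta1, Cd163, Cxcl9, Egr2, Esrra, Hspa1b, Ifit1, Igf1r, Irf7, Krt18, Myoz2, Psmb8, Slc2a4, Sox10, Sparc and Tap1 fall outside the rule and were chosen after their values were seen. Some genes are not reported here.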

Additional observations from a re-analysis of the deposited data

Results flagged for a closer look

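Among the named genes, 392 groups of 4 libraries, day 1 or day 5 of each gene, were looked at for a library far from the others of its group, meaning that its gap to the nearest of them exceeded the 95% limit of Dixon's test. This held for 24 groups, and chance alone flags about 1 in 20. The highest value stood apart for Ankrd1 in day 5 replicate 4 (476 CPM, others 462 to 464), Calca in day 5 replicate 1 (0.0544 CPM, others 0), Chrnb1 in day 5 replicate 1 (124 CPM, others 114 to 115) and Chrne in day 1 replicate 2 (2.6 CPM, others 1.84 to 1.94). It also did for Dok7 in day 5 replicate 4 (15.8 CPM, others 11.3 to 11.9), Id2 in day 1 replicate 3 (25.7 CPM, others 22.6 to 23.1), Mcm5 in day 1 replicate 2 (16.7 CPM, others 14.1 to 14.5) and Myh2 in day 1 replicate 1 (344 CPM, others 324 to 325). The same was seen for Mzb1 in day 1 replicate 3 (3.93 CPM, others 2.54 to 2.77), Psmc6 in day 1 replicate 1 (138 CPM, others 125 to 127) and Pvalb in day 1 replicate 3 (4040.0 CPM, others 3890.0 to 3910.0). Further cases were Tnni1 in day 1 replicate 4 (30.9 CPM, others 27 to 27.6) and mt-Nd3 in day 5 replicate 1 (722 CPM, others 637 to 642). The lowest value stood apart for Ccr7 in day 5 replicate 1 (11.7 CPM, others 14.6 to 15.1), Cd3g in day 5 replicate 4 (5.14 CPM, others 6.73 to 7.02), Cd9 in day 1 replicate 4 (66.2 CPM, others 71.7 to 72.8) and Chrnd in day 5 replicate 2 (53.7 CPM, others 57.7 to 58.4). So it did for Cntf in day 1 replicate 3 (1.84 CPM, others 2.91 to 3.1), Cpt1b in day 5 replicate 2 (134 CPM, others 142), Myf5 in day 1 replicate 1 (2.63 CPM, others 3.45 to 3.52) and Myh7 in day 1 replicate 3 (51.3 CPM, others 57.5 to 58.1). The same held for Ighv2-9-1 in day 5 replicate 3 (0.0552 CPM, others 0.206 to 0.218), Myl3 in day 1 replicate 4 (77.7 CPM, others 85.1 to 85.9) and Psmb3 in day 5 replicate 4 (218 CPM, others 225 to 226). The values of Calca and Ighv2-9-1 are at the limit of what 1 read gives. Myh2, Myh7, Myl3 and Tnni1 changed by far more between the days than these libraries differ from the rest of their group.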

How the results depend on the processing

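Of 14246 genes tested, 8234 changed between day 1 and day 5, and the number was 8227 with DESeq2's size factors in edgeR, 8207 with DESeq2, 8319 with library totals alone, 8330 with the 8 libraries fitted alone, 8166 with a filter of at least 1 CPM in 4 libraries and 8280 with no filter. Leaving out each of the 8 libraries in turn gave 7791 to 7914. Of 194 named genes, 191 kept their direction and their side of the threshold under all 15 alternatives that gave a value. The exceptions were Chrnb1 and Myh13, described above, and Ankrd1, which was called higher with library totals alone (log2 0.08, edgeR adjusted p = 0.027). The median log2 change changed sign for 2 of 51 gene lists. For cytokines and chemokines it was 0.071, and −0.094 to 0.13 with each library left out, negative without day 1 replicate 1 (−0.017) or day 5 replicate 3. For the 7 sensory neuron markers tested it was −0.038, and 0.061 with the stricter filter, 0.060 with the 8 libraries alone, 0.025 with library totals alone and −0.26 to 0.21 with each library left out. The cause of these shifts was not tested.

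With the replicate number as a block, 8219 genes changed, 4129 higher and 4090 lower, and no named gene changed its call. Libraries with the same number did not deviate together (correlations −0.041 to 0.014, and 0 of 4 day 1 libraries correlated best with their own number), so the numbers were not taken to pair the libraries.

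Depth limits genes of few counts: Calca had 8 counts at day 1 and Dach2 had 7. On simulated counts for day 5 against day 1, edgeR recovered 7 of 50 genes simulated with a 1.1-fold change. It recovered 46 of 50 at 1.5-fold and all 50 at 2-fold, and called 4 unchanged genes. The simulation gave every gene the same spread and left most genes unchanged, whereas 57.8% of the genes tested changed here. Its figures may therefore not carry over to these data.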

Other observations

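Variable-region genes of antibodies, which encode the antigen-binding part and of which each B cell clone uses its own pair, were followed across the series. The 32 that were tested passed the expression filter through day 1 or day 5, groups that were chosen for their lymphoid signal, so their levels and counts are a description. Summed over the 32, the level was 27.3 to 31.2 CPM in the day 1 libraries and 91.8 to 105.4 CPM in the day 5 libraries. It was at most 0.84 CPM in any control library, 0.702 CPM at day 3, 0.577 CPM at day 7 and 0.795 CPM at day 14. Of the 32 genes, 23 rose from day 1 to day 5, 2 fell and 7 did not pass. Igkv4-61, a kappa variable gene, stood at 0.138, 0, 0.204 and 0.216 CPM in the day 1 libraries and 7.68, 5.82, 6.67 and 6.22 CPM in the day 5 libraries. Ighv2-9-1, a heavy chain variable gene, went the other way, with 3.74, 3.71, 4.44 and 4.1 CPM at day 1 and 0.218, 0.214, 0.0552 and 0.206 CPM at day 5. The 4 libraries of a day had a similar mix of these genes. Among libraries of one day, counts of variable genes with at least 20 counts differed with a chi-square per degree of freedom of 1.83 at day 1 (22 genes) and 2.09 at day 5 (31 genes). Over all genes with at least 20 counts it was 2.17 and 2.49. Those genes were not matched in depth to the variable genes, so the figures are not a test of likeness between libraries. Whether the 4 libraries of a group were made from separate animals is not stated in the labels.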
